A study of Homo sapiens with 16 samples.

Results

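The genes described here are the 3 catalytic subunits of the immunoproteasome (PSMB8, PSMB9 and PSMB10), the 3 constitutive subunits they replace (PSMB5, PSMB6 and PSMB7) and the 2 subunits of the PA28 activator (PSME1 and PSME2). They were chosen by gene symbol, and all 8 were found among the 60669 genes of each of the 2 deposited tables. RNA came from HMC3, an established human microglial cell line, either wild type or labelled METTL3 knockout; METTL3 is the catalytic subunit of the enzyme that writes N6-methyladenosine on RNA. Each genotype had 5 libraries made from polyadenylated RNA with Smart-seq2 and 3 made with a directional kit after removal of ribosomal RNA, 16 in all, and no other allele or treatment is labelled. Whether the knockout line is a single clone, and whether libraries came from separate cultures, is not given in the sources used here, so p-values measure only the spread between these libraries.

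The proteasome is a barrel-shaped protease that degrades ubiquitin-tagged proteins in every cell. Its cutting activities lie in the subunits encoded by PSMB5 (chymotrypsin-like), PSMB6 (caspase-like) and PSMB7 (trypsin-like). Interferon induces PSMB8, PSMB9 and PSMB10, which are built into newly assembled barrels in their place, in that order, to form the immunoproteasome, whose products include many peptides shown on MHC class I. PSME1 and PSME2 encode the alpha and beta subunits of PA28, a ring that caps the barrel and opens its gate, and both are also induced by interferon. Microglia, the macrophages of the brain, raise immunoproteasome genes when activated.

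Stretches of 30 reference bases are shown first because 4 members and TAP1, which starts beside PSMB9, carry the same letters near a start site. Promoter windows from RefSeq on GRCh38.p14 (250 bases before to 50 after a start) were present for 6 of the 8 members; PSMB6 and PSMB7 had no entry. Both strands were searched for the core of the interferon-stimulated response element, written GAAANNGAAA, and for the gamma-activated sequence TTCNNNGAA. In the lines below capitals mark the match, and every sequence is written 5′ to 3′ on the strand that reads it.
PSMB8: aggaggaagtGAAAGCGAAAgccacagatc
PSMB10: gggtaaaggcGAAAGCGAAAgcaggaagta
PSME1: accgcgaaggGAAAGCGAAAgcggtagggc
PSME2: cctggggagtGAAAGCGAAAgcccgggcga
TAP1: ccatttagggGAAAGCGAAAtcgaaagcgg

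These stretches lie at chr6:32844032-32844061 (plus strand, PSMB8), chr16:67936852-67936881 (minus strand, PSMB10), chr14:24136189-24136218 (minus strand, PSME1), chr14:24146619-24146648 (minus strand, PSME2) and chr6:32853813-32853842 (plus strand, TAP1), on GRCh38.p14. The core GAAANNGAAA was found in 3.57% of the 35116 windows in the RefSeq table. All 5 matches shown read GAAAGCGAAA, a string noticed after the matches were seen and present in 35 windows (0.0997%). The TAP1 window holds another, overlapping core, GAAATCGAAA. The PSMB8 match belongs to the second of its 2 windows, that of the start at 32844047, and overlaps that start. In these RefSeq windows PSMB9 starts at 32854192 on the plus strand and TAP1 at 32853704 on the minus strand. The TAP1 site thus lies between the RefSeq starts of these neighbours. The window of PSMB9 itself held neither motif. TTCNNNGAA was found in that second PSMB8 window and in a PSMB5 window, against 7.66% of all windows. A match describes letters only and does not show that a factor binds there.

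For the rRNA-depleted libraries the values are TPM, which scale read numbers by gene length and library size. Applying gene lengths from GENCODE 29 (GRCh38) showed what 1 read was worth, with 90.9% of the values above 0 being whole reads to within 0.02, and gave depths of 266157 to 1267171 reads over genes with a length. These are shallow libraries, so read numbers are given beside the TPM. Knockout-labelled libraries 1 and 2 differed by no more than sampling noise (chi-square of 1.02 per degree of freedom over 10120 genes, p = 0.065) and were averaged and counted as 1 sample, leaving 3 wild-type and 2 knockout-labelled samples. The wild-type libraries held 31.2, 31.6 and 25.4 TPM of METTL3 mRNA and the knockout-labelled libraries 39.2, 39.96 and 42.7 TPM, so mRNA does not check that label. Of 10 microglial and macrophage markers, 8 were at 0 in all 6 libraries (AIF1, CX3CR1, P2RY12, TMEM119, PTPRC, SPI1, ITGAM and C1QA). The 10 together reached at most 1.16 TPM in a wild-type library and 2.95 TPM in a knockout-labelled one. Each of 7 fibroblast and mesenchymal markers was above 0 in some library, and they summed to 11650 to 14076 TPM in the wild type and 5624 to 5722 TPM under the knockout label. COL1A1 alone carried that lower sum: its mean was 10669 TPM in the wild type and 819 TPM under the knockout label, and the other 6 summed to 2038 to 2156 TPM and to 4826 to 4906 TPM. Of the 6 markers tested, 3 were higher (VIM, FN1 and THY1) and 3 lower (COL1A1, COL1A2 and PDGFRB). Their part in the results below was not tested. In RNA from whole cultures, fewer cells with a transcript and less of it per cell cannot be told apart.

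In the rRNA-depleted libraries the 2 PA28 genes and the constitutive genes PSMB6 and PSMB7 rose under the knockout label, while PSMB8 fell. PSMB9, PSMB10 and PSMB5 did not pass the test. That is 4 of 8 members higher, where 22.9% of the 14789 genes tested were called higher by limma at an adjusted p under 0.05, and 1 of 8 lower, where 12.4% were. All 8 members passed the filter of at least 1 TPM in at least 3 libraries. The median log2 change was 1.74 over the 8 members, 1.73 without PSMB10, which had too few reads for a fold, and 0.41 over all genes tested. Genes called made up 35.3% of those tested, and 64.8% of the calls were higher, against 48.6% with median ratio scaling and 52.4% with voom. Median ratio scaling between libraries moved that median of all genes to 0.11. Each change except that of PSMB10 is therefore also given relative to the median of 0.41. The sentences below take the members by role.

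**Figure D1:**
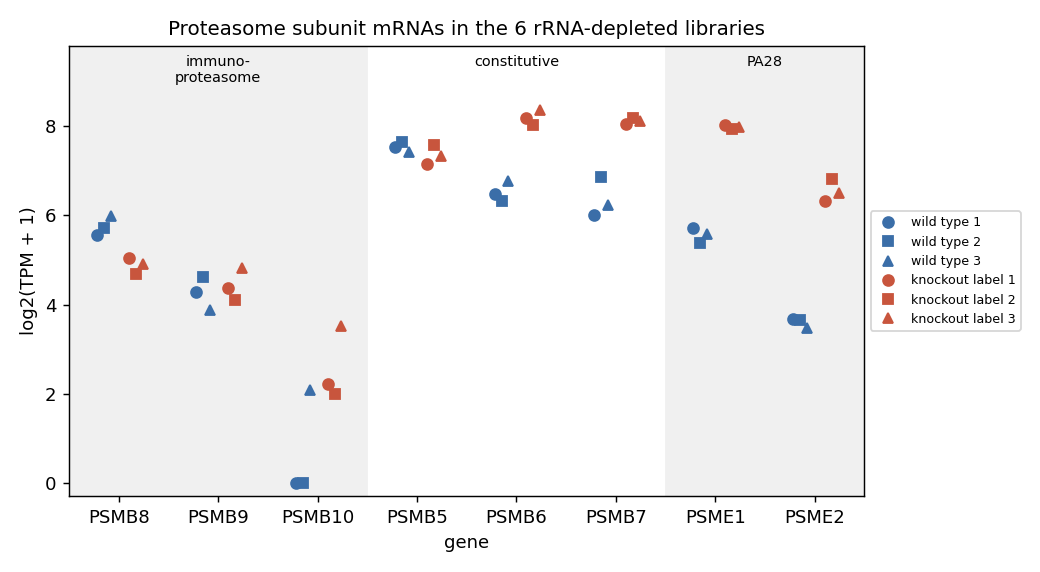
Level of each member, as log2(TPM + 1) on the vertical axis, in each rRNA-depleted library (blue for wild type, red for the knockout label, 1 symbol per replicate number). PSME1, PSME2, PSMB6 and PSMB7 sit higher in all 3 knockout-labelled libraries than in any wild-type library, PSMB8 sits lower in all 3, and PSMB9 and PSMB5 overlap.

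PSMB8 encodes the chymotrypsin-like subunit of the immunoproteasome (ENSG00000204264; chromosome 6, 32840717 to 32844703, minus strand, GRCh38). Wild-type libraries 1 to 3 held 45.9, 51.6 and 62.7 TPM of it, and knockout-labelled libraries 1 to 3 held 31.7, 24.6 and 28.97 TPM. All 3 wild-type libraries were higher than all 3 knockout-labelled ones; over all genes tested, the groups did not overlap for 58.4%. These values rest on 13, 10 and 21 reads and on 19, 18 and 9 reads, which come out whole with a gene length of 2006 bases in place of the 2997 of GENCODE 29. The wild-type mean was 53.4 ± 8.53 TPM (SD, n = 3), against 28.6 ± 0.57 TPM (SD, n = 2). PSMB8 changed by -0.87 on the log2 scale (SE 0.19, limma adjusted p 0.0216), or -1.28 relative to the median of all genes. The call was lost without knockout-labelled library 3, which leaves 1 sample under that label (log2 change -0.89). It was also lost with the trend with GC content removed from each library (-0.40, limma adjusted p 0.179). Over its 13 alternatives the limma adjusted p ran from 0.000432 to 0.179 and the direction held. The lowest came with voom, whose read numbers for PSMB8 used the 2997 bases and so exceeded those given here. Even so, voom gave a larger SE of 0.28, at a log2 change of -1.21. The small spread of PSMB8 under the knockout label is not read further, since it rests on 9 to 19 reads per library and on 2 samples. The antisense gene PSMB8-AS1 shares 20.6% of the 2997 exonic bases of PSMB8 in GENCODE 29. The share in the 2006 bases that fit these values is not known. Whether counting used strand is not stated. PSMB8-AS1 was at 0 TPM in 5 libraries and had 2 reads in knockout-labelled library 2.

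PSMB9 encodes the immunoproteasome subunit that takes the place of PSMB6 (ENSG00000240065; chromosome 6, 32844136 to 32859585, plus strand). Its levels were 18.4, 23.6 and 13.6 TPM in the wild type and 19.6, 16.05 and 27.3 TPM under the knockout label, from 7 or 8 reads per wild-type library and from 13 to 18 per knockout-labelled library. The groups overlapped. The log2 change was 0.27 (limma adjusted p 0.569), or -0.14 relative to the median of all genes. The 95% interval of the change ran from -0.59 to 1.14. That interval holds 0 and also an increase of 1 on the log2 scale. The sign was not stable either: it was negative with median ratio scaling (-0.07), with voom on whole reads (-0.17) and without knockout-labelled library 3 (-0.02).

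PSMB10, whose product takes the place of PSMB7, was close to undetected (ENSG00000205220; chromosome 16, 67934502 to 67937087, minus strand). It had 0, 0 and 1 reads in the wild-type libraries and 2, 2 and 3 reads in the knockout-labelled libraries, that is 0, 0 and 3.23 TPM against 3.62, 2.96 and 10.5 TPM. Where no read was seen, up to 3 are allowed by counting error, and 3 reads of PSMB10 equal 11.5 TPM in wild-type library 1 and 16.8 TPM in wild-type library 2. No library exceeded 3 reads, so no fold is given; the limma adjusted p was 0.117, and 2 of 13 alternatives passed, one of them without wild-type library 3 (limma adjusted p 0.0447, in a range of 0.0328 to 0.566). PSMB10 shares 34.8% of its exonic bases, on the same strand, with a gene listed in GENCODE 29 as AC040162.1, which was at 0 TPM in all 6 libraries.

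Among the constitutive subunits, PSMB5 was the most abundant of the 8 members in the wild type and did not pass the test (ENSG00000100804; chromosome 14, 23016543 to 23035230, minus strand). It was at 185, 199 and 170 TPM in the wild type and at 141, 191 and 161 TPM under the knockout label, from 34 to 123 reads. The libraries overlapped. Its log2 change was -0.17 with a 95% interval of -0.46 to 0.11 (limma adjusted p 0.286), or -0.58 relative to the median of all genes. Median ratio scaling gave -0.52 and a call (limma adjusted p 0.0282, the lowest of its 13 alternatives, which reached 0.717), and removing the GC trend gave 0.14.

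PSMB6 and PSMB7, the constitutive caspase-like and trypsin-like subunits, rose about equally. PSMB6 (ENSG00000142507; chromosome 17, 4796144 to 4798503, plus strand) was at 88.0, 78.6 and 107 TPM in the wild type and at 292, 261 and 330.0 TPM under the knockout label, from 11 to 138 reads. The lowest knockout-labelled library stood above the highest wild-type library, as for 38.4% of all genes tested. The wild-type mean of PSMB6 was 91.4 ± 14.7 TPM (SD, n = 3), and that under the knockout label, 303 ± 37.96 TPM (SD, n = 2), was 3.32-fold higher. Its change was 1.73 on the log2 scale (SE 0.17, limma adjusted p 0.00276), or 1.31 relative to the median of all genes. PSMB7 (ENSG00000136930; chromosome 9, 124353466 to 124415444, minus strand) was at 63.4, 116 and 73.7 TPM in the wild type and at 264, 291 and 278 TPM under the knockout label, from 16 to 190 reads. Wild-type library 2 was the highest of its group and still far below the other group. Its mean rose 3.30-fold, or by 1.76 on the log2 scale (SE 0.27, limma adjusted p 0.00773), or 1.35 relative to the median of all genes. The call of PSMB7 was lost without knockout-labelled library 3, which leaves 1 sample under that label (log2 change 1.76, limma adjusted p 0.107); over the 13 alternatives of PSMB7 that p ran from 5.74e-07 to 0.107. PSMB6 passed in all 13 alternatives.

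PSME1 and PSME2 changed most of the 7 members that had more than 3 reads in a library. PSME1, the alpha subunit of PA28 (ENSG00000092010; chromosome 14, 24136158 to 24138967, plus strand), was at 51.7, 40.7 and 47.1 TPM in the wild type and at 262, 245 and 250.2 TPM under the knockout label. It had 13, 7 and 14 reads against 139, 159 and 69 reads. The wild-type mean was 46.5 ± 5.54 TPM (SD, n = 3), and it was 5.41-fold higher, at 252 ± 2.02 TPM (SD, n = 2), under the knockout label. PSME1 changed by 2.42 (log2, SE 0.14, limma adjusted p 0.00112), or 2.01 relative to the median of all genes. The groups were far apart. Their small spread is not read further, since the wild-type values rest on 7 to 14 reads and the other SD on 2 samples. With voom on whole reads the log2 change of PSME1 was 2.10, with a larger SE of 0.28.

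PSME2, the beta subunit (ENSG00000100911; chromosome 14, 24143362 to 24147570, minus strand), was at 11.9, 11.6 and 10.03 TPM in the wild type, from 6, 4 and 6 reads. Under the knockout label it was at 79.5, 111 and 90.1 TPM, from 85, 145 and 50 reads. The mean rose 8.31-fold, or by 2.95 on the log2 scale (SE 0.19, limma adjusted p 0.00125), or 2.54 relative to the median of all genes. With voom on whole reads the log2 change of PSME2 was 2.725, with a larger SE of 0.38. Both PA28 genes passed in all 13 alternatives, with log2 changes of 2.07 to 2.84 for PSME1 and 2.61 to 3.19 for PSME2. RNF31, on the opposite strand, shares 6.03% of the exonic bases of PSME2 and stood at 18.7 to 22.8 TPM in the wild type and 22.9 to 25.8 TPM under the knockout label. Of the PSME2 pseudogenes, PSME2P1 had no reads in the wild type and no more than 8.97 TPM under the knockout label. Reads that fit both PSME2 and such copies could have been split between them. Within a library, PSME1 exceeded PSME2 by a TPM ratio of 4.36, 3.52 and 4.69 in the wild type. Under the knockout label that ratio was 3.29, 2.21 and 2.78. The 2 sets did not overlap, but 3.52 rests on 4 reads of PSME2 and lies close to 3.29, so the gap is within counting error. The size of the ratio depends on the lengths that TPM divides by, 1781 bases for PSME1 and 3582 for PSME2. In reads, wild-type library 1 held 13 of PSME1 against 6 of PSME2.

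The order of the levels differed between the groups. Within a group, the order of different genes also depends on the gene lengths used for TPM. In the wild type it ran PSMB5, PSMB6, PSMB7, PSMB8, PSME1, PSMB9, PSME2 and PSMB10 by mean TPM, and the ranges of PSMB6 and PSMB7 overlapped, as did those of PSMB8 and PSME1. Under the knockout label PSMB6 and PSMB7 came first with overlapping ranges, followed by PSME1, PSMB5, PSME2, PSMB8, PSMB9 and PSMB10. Over the 3 single libraries under that label, the range of PSME1 (245 to 262 TPM) also touched that of PSMB6 (261 to 330.03 TPM), and that of PSMB8 (24.6 to 31.7 TPM) overlapped that of PSMB9 (16.05 to 27.3 TPM). PSMB8 and PSME1 thus started at like levels in the wild type, and under the knockout label PSME1 stood at 252 TPM and PSMB8 at 28.6 TPM.

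Each immunoproteasome subunit was next set against the subunit it replaces within the same library, which removes any factor shared by all genes of that library. The log2 ratio of PSMB8 to PSMB5, both as TPM + 1, was -1.98, -1.93 and -1.42 in the wild type and -2.11, -2.91 and -2.43 under the knockout label. All 3 knockout-labelled libraries were lower, but wild-type library 1 (-1.98, 13 PSMB8 reads) and knockout-labelled library 1 (-2.11, 19 PSMB8 reads) lie close. That gap is within counting error. The means over samples were -1.78 ± 0.31 (SD, n = 3) and -2.47 ± 0.06 (SD, n = 2). The latter SD follows averaging of knockout-labelled libraries 1 and 2 (-2.11 and -2.91) and understates their spread. For PSMB9 to PSMB6 the log2 ratio was -2.20, -1.70 and -2.89 in the wild type and -3.83, -3.94 and -3.55 under the knockout label, again without overlap, with means of -2.26 ± 0.60 (SD, n = 3) and -3.71 ± 0.24 (SD, n = 2). PSMB10 to PSMB7 overlapped and is not read further, because PSMB10 had 3 reads at most. How often such ratios do not overlap over all gene pairs was not computed. For single genes tested, the groups did not overlap for 58.4%. No test is given for these ratios, since the members were chosen with earlier results known.

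**Figure D2:**
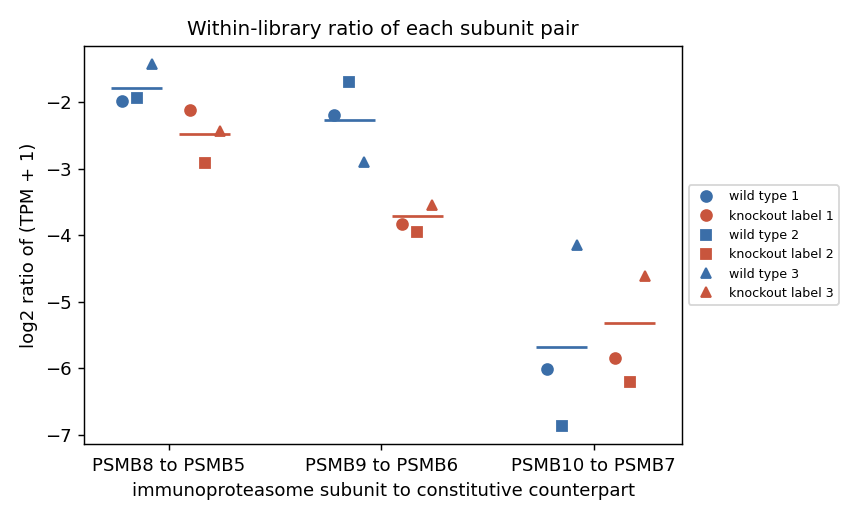
Log2 ratio of (TPM + 1) of each immunoproteasome subunit to its constitutive counterpart in each rRNA-depleted library (blue for wild type, red for the knockout label); lines are means over 3 wild-type and 2 knockout-labelled samples. The first 2 pairs are lower in all 3 knockout-labelled libraries, and the third overlaps. For PSMB8 to PSMB5 the gap between the groups is within counting error. The share of all gene pairs without overlap was not computed.

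Summed over the 3 pairs, the immunoproteasome genes made up 16.1%, 16.03% and 18.5% of the catalytic subunit TPM in the wild type and 7.32%, 5.54% and 7.98% under the knockout label. The constitutive sum accounted for most of that: it was 336, 394 and 351 TPM in the wild type and 697, 743 and 769 TPM under the knockout label. The immunoproteasome sum moved less, from 64.3, 75.2 and 79.5 TPM to 55.004, 43.6 and 66.8 TPM, and overlapped between the groups. PA28 moved against the catalytic genes too: PSME1 and PSME2 together had 0.159, 0.111 and 0.133 times the TPM of the 6 catalytic genes in the wild type and 0.454, 0.452 and 0.407 times under the knockout label. These shares and ratios hold for the rRNA-depleted libraries only, and their size depends on the gene lengths used for TPM. The authors' deposited table, as its numerator is read below, moved PSMB8 against PSMB5 and PSMB9 against PSMB6 the other way.

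For the poly(A) libraries only the authors' deposited table was used, and it gives 1 value per gene for the comparison and none per library. Its positive values are taken as higher under the knockout label, as explained under processing. In the authors' deposited table PSMB9, PSMB8, PSME1 and PSME2 rose, PSMB5, PSMB6 and PSMB7 fell, and PSMB10 did not pass. That is 4 of 8 members higher against 9.55% of the 14009 genes with an adjusted p, and 3 of 8 lower against 10.3% (19.9% in either direction).

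PSMB9 had the largest change of the 8 in the authors' deposited table, at 1.15 on the log2 scale (SE 0.20; adjusted p 4.64e-07) at a mean normalized count of 50.1. The authors' deposited table gave PSMB8 0.58 (SE 0.18; adjusted p 0.00797) at a mean normalized count of 51.9. PSMB10 had -0.12 (SE 0.47; adjusted p 0.901) at a mean normalized count of 7.67 in the authors' deposited table. The overlapping antisense gene PSMB8-AS1 had a log2 fold change of 2.88 (SE 1.08; adjusted p 0.0413) in the authors' deposited table, at a mean normalized count of only 2.05.

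In the authors' deposited table PSMB5 had a log2 fold change of -0.36 (SE 0.09; adjusted p 0.000864), PSMB6 of -0.30 (SE 0.08; adjusted p 0.00112) and PSMB7 of -0.38 (SE 0.09; adjusted p 0.000537). The 3 constitutive genes moved in the same direction by like amounts, -0.38 to -0.30 in the authors' deposited table. For PA28, PSME1 had 0.58 (SE 0.07; adjusted p 2.86e-13) and PSME2 0.34 (SE 0.13; adjusted p 0.0398) in the authors' deposited table. PSME2 was the called member closest to the threshold.

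**Figure D3:**
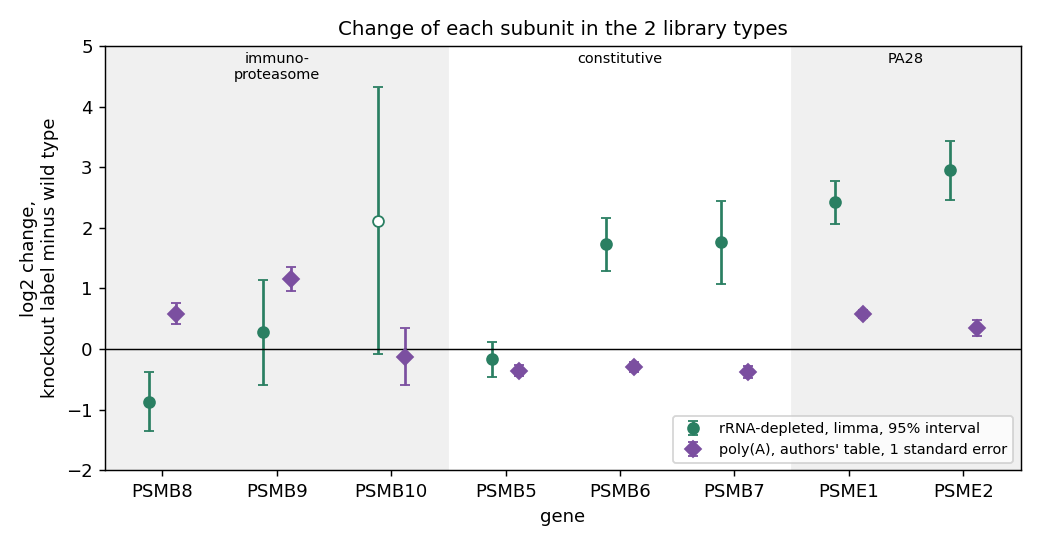
Log2 change of each member, knockout label minus wild type, on the vertical axis: green circles are the rRNA-depleted libraries on the log2(TPM + 1) scale with 95% intervals (hollow for PSMB10, which had 3 reads at most), and purple diamonds the authors' deposited poly(A) table with 1 standard error. The PA28 genes are above 0 in both types, and PSMB8, PSMB6 and PSMB7 are on opposite sides of 0.

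The library types thus gave the same direction for PA28 and opposite directions for 3 genes. PSMB8 was 0.58 in the authors' deposited table and -0.87 in the rRNA-depleted libraries. PSMB6 was -0.30 in the authors' deposited table and 1.73 in the rRNA-depleted libraries, and PSMB7 -0.38 in that table and 1.76. Each of these values passed the threshold of its own comparison; the difference between library types was not tested, for want of poly(A) values per library. So 3 of the 5 members called in both types had opposite signs. Over all genes the share was 32.7% (434 of 1327 genes called in both), of which 379 were lower in the authors' deposited table and higher in the rRNA-depleted libraries, as PSMB6 and PSMB7 were, and 55 the reverse, as PSMB8 was. These shares rest on the numerator of the authors' deposited table, which is not stated and was read from its likeness to these same rRNA-depleted libraries. With the other numerator, 2 of the 5 members (PSME1 and PSME2) and 893 of the 1327 genes (67.3%) would have opposite signs. The balance within pairs also differed by library type. In the authors' deposited table PSMB8 (0.58) and PSMB9 (1.15) rose while PSMB5 (-0.36) and PSMB6 (-0.30) fell, whereas both ratios fell with rRNA depletion. With the other numerator both pairs would move as they did with rRNA depletion.

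GC content moved with the change across genes in the rRNA-depleted libraries (Spearman's rho -0.37 across genes, which are not replicates), so each member is set beside genes of like GC content, within 1 percentage point in the longest transcript. PSMB8 (53.8% GC) changed by -0.87 where the median of 976 such genes was 0.06. PSMB6 (54.5% GC) changed by 1.73 against a median of -0.04, and PSMB7 (49.9% GC) by 1.76 against 0.43. For PSME1 (53.2% GC) the change was 2.42 against 0.13 and for PSME2 (51.3% GC) 2.95 against 0.33. PSMB9 (46.9% GC), with 0.27, lay under the median of its like, 0.68, and PSMB5 (51.9% GC), with -0.17, under its median of 0.23. With the GC trend removed the 4 genes that rose kept their calls, at log2 changes of 2.22 for PSMB6, 1.84 for PSMB7, 2.84 for PSME1 and 3.19 for PSME2. PSMB8 did not: its change was -0.40 (limma adjusted p 0.179).

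**Figure D4:**
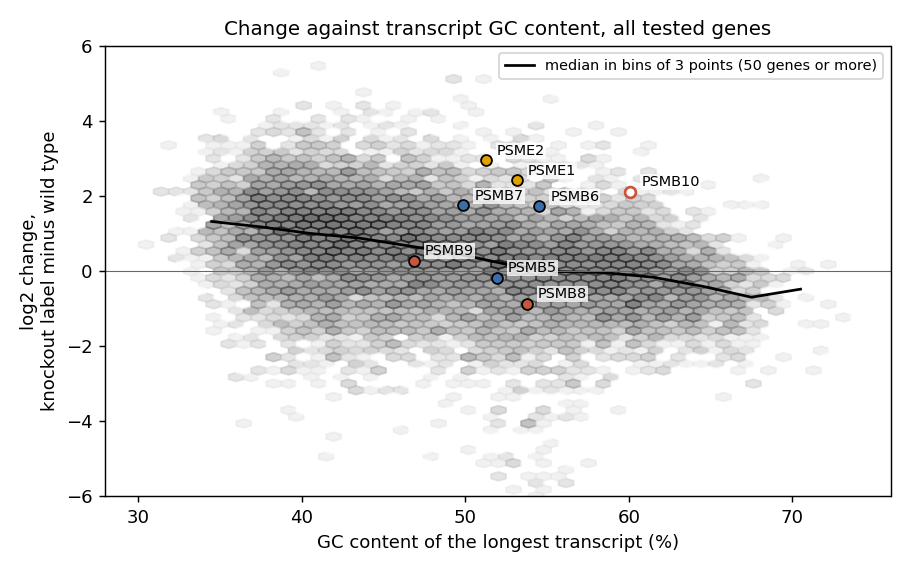
Log2 change in the rRNA-depleted libraries (vertical axis, genes beyond 6 in size not drawn) against GC content of the longest transcript in percent, for all tested genes (grey, darker for more genes) with the median in bins of 3 percentage points (black line). Members are coloured by role (red immunoproteasome, blue constitutive, yellow PA28; hollow for PSMB10, which had 3 reads at most). PSME1, PSME2, PSMB6 and PSMB7 stand above the line, and PSMB8 below it.

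The other subunits of the proteasome core did not all follow PSMB6 and PSMB7. Of 11 other core genes, limma called 3 higher and 1 lower in the rRNA-depleted libraries and 7 did not pass, against 22.9% and 12.4% of all genes tested; their median log2 change was 0.46, near the 0.41 of all genes. PSMA4, a structural subunit of the outer ring, rose by 2.56 (limma adjusted p 0.00453), with a wild-type mean of 11.2 ± 3.28 TPM (SD, n = 3) against 70.1 ± 12.95 TPM (SD, n = 2). PSMB1, a structural subunit of the inner ring, rose by 1.94 (limma adjusted p 0.00396). PSMB2, another inner ring subunit, fell by 1.94 (limma adjusted p 0.00135); its wild-type mean was 286 ± 36.02 TPM (SD, n = 3), against 73.3 ± 0.0836 TPM (SD, n = 2). By the authors' deposited table, 9 of the 11 were lower, where 10.3% of all genes were, none was higher and 2 did not pass, with a median of -0.53 against 0.02 over all genes with an adjusted p. The largest falls in the authors' deposited table were those of PSMA6 (-0.93) and PSMB1 (-0.62), so PSMB1 too had opposite signs in the library types.

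Factors that assemble, cap or inhibit the barrel formed the second related list, of which 8 of 9 were tested; PSMB11, the thymus-specific subunit, was at 0 TPM in all 6 libraries. In the rRNA-depleted libraries 5 were higher, none was lower and 3 did not pass, with a median log2 change of 0.98. Over all genes tested, 22.9% were higher and 12.4% lower, and the median was 0.41. POMP, the chaperone that matures the barrel, rose by 1.74 (SE 0.44; limma adjusted p 0.0317), and PSMG2, another assembly chaperone, by 1.56 (SE 0.34; limma adjusted p 0.0213). PSME3, which encodes the nuclear relative of the PA28 subunits, rose by 0.87 (SE 0.11; limma adjusted p 0.00505). By the authors' deposited table, 2 of the 8 were lower, PSMG4 (-0.80) and POMP (-0.36), none was higher and 6 did not pass, against 10.3% of all genes lower and 9.55% higher; PSME3 had 0.11 (adjusted p 0.16).

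The next related list held 12 genes, inducers of the immunoproteasome and regulators of proteasome genes. In the rRNA-depleted libraries limma called 3 higher and 2 lower, against 22.9% and 12.4% of all genes tested. The authors' deposited table had 5 of 12 higher and none lower, against 9.55% and 10.3% of all genes. JAK1, a kinase of interferon receptors, rose by 1.64 in the rRNA-depleted libraries (SE 0.30; limma adjusted p 0.0126) and by 0.63 in the authors' deposited table, and IFNGR2, a chain of the interferon gamma receptor, by 0.88 in the authors' deposited table. IFNAR2 and IFNAR1, the chains of the type I interferon receptor, fell by 2.47 and 1.37 with rRNA depletion (log2 scale, limma adjusted p 0.00439 and 0.0128) and did not pass in the authors' deposited table. The list's median log2 change was 0.57 in the rRNA-depleted libraries (0.55 without the gene with 3 reads or fewer in each library of a group) and 0.63 in the authors' deposited table, against 0.41 and 0.02 over all genes.

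Among the genes that load immunoproteasome products onto MHC class I, HLA-B, a presenting heavy chain, had opposite signs in the library types, as PSMB8 did. Of 15, 14 were tested in the rRNA-depleted libraries, with 4 higher, 3 lower and 7 not past the threshold, against the 22.9% and 12.4% of all genes. Their median log2 change was 0.31, or 0.45 without HLA-F, which had 2 reads at most, against 0.41 over all genes. B2M, the invariant chain of MHC class I, rose by 2.94 (SE 0.19; limma adjusted p 0.00124), and ERAP2, which trims peptides, by 1.93 (SE 0.34; limma adjusted p 0.0115). HLA-B fell by 1.07 on the log2 scale (limma adjusted p 0.0168) and CALR, a chaperone of the loading complex, by 1.01 (limma adjusted p 0.00276). The authors' deposited table had 9 of 14 higher, 2 lower and a median of 0.80, against 9.55%, 10.3% and 0.02 over all genes, with HLA-F (2.16, at a mean normalized count of 2.78) and HLA-B (1.75) highest and CANX (-0.23) and CALR (-0.22) lowest. HLA genes are alike in sequence, which makes their single values uncertain.

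**Figure D5:**
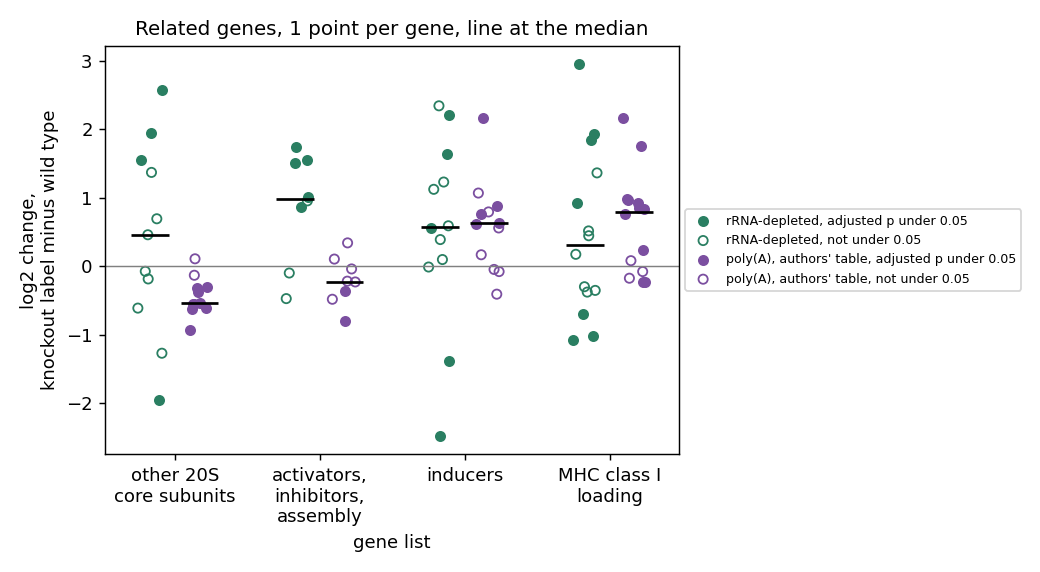
Log2 change, knockout label minus wild type (vertical axis), of the genes of 4 related lists, 1 point per gene, in the rRNA-depleted libraries (green) and the authors' deposited poly(A) table (purple); filled points have an adjusted p under 0.05 and lines are medians. The other core subunits have a median of 0.46 in green and -0.53 in purple.

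At the PSMB8 and PSMB9 locus, TAP1 and TAP2 encode the chains of the transporter that carries peptides into the endoplasmic reticulum. TAP1 was at 32.5, 29.4 and 15.7 TPM in the wild type and at 29.3, 31.1 and 42.3 TPM under the knockout label, which overlap (limma adjusted p 0.332). The authors' deposited table gave TAP1 a log2 fold change of 0.76 (SE 0.17; adjusted p 0.000175), lower than the 1.15 of its neighbour PSMB9 there. TAP2 did not pass in either (limma adjusted p 0.107; adjusted p 0.918 in the authors' deposited table). PSMB9, TAP1 and PSMB8 thus all rose in the authors' deposited table, and of the 3 only PSMB8 passed in the rRNA-depleted libraries, where it fell.

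The genes whose profile over the 6 rRNA-depleted libraries lay closest to PSMB8, by Euclidean distance of centred log2(TPM + 1) among 11856 genes with a mean of at least 5 TPM, were SLC9A3R2 (distance 0.12), FOXC2 (0.16) and KLC1 (0.17), where the median distance was 2.16. For PSMB9 they were ZNF526 (0.24) and CHST10 (0.26), followed by a gene without a symbol (0.27), with a median distance of 1.75. With 6 libraries in 2 groups, such a list describes these profiles only.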

How the data were processed

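The members and gene lists were chosen with earlier results of these data known. The poly(A) libraries come as a comparison table that the authors deposited and that was read as it stands. Its columns, per the file headers, are the mean normalized count (a signal over all libraries), log2 fold changes and their standard errors, the test statistic (a score), p-values and adjusted p-values. Its numerator is not stated. Positive was read as knockout over wild type: of 177 genes called and changed by 1 or more (log2) with both kinds of library, 91.5% then share a sign; otherwise every direction from it would be opposite. TPM is what the authors deposited for rRNA-depleted RNA. The submitters' processing notes name hg38, Trimmomatic, STAR and DESeq2; annotation, counting and strand are not given in the sources used here. Columns were assigned by the genotype and number in their names.

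Whole reads were recovered from TPM and union exon lengths in GENCODE 29, which matched 93.8% of gene identifiers. Read limits cover counting error only. Libraries of a label were compared by chi-square over genes with at least 10 whole reads in the pair, and knockout-labelled libraries 1 and 2 were averaged. limma 3.58.1 in R 4.3.3 (eBayes with trend) was run on log2(TPM + 1), which understates changes of low genes, for genes that reached 1 TPM in 3 or more libraries; the model held genotype alone, and p-values were adjusted by Benjamini-Hochberg (threshold 0.05). Tested on simulated reads with 200 of 14673 genes changed by 2 on the log2 scale in 5 samples, that step recovered 54 (27%) in the right direction and called 2 others, and 0 when none was changed. Alternatives were 6 separate libraries, a replicate block, a pseudocount of 0.1, no filter, median ratio scaling, removal of the GC trend, voom, and leaving out each library. Named genes are the members, METTL3, locus neighbours and, per list, the 2 largest called changes each way (1 inducer is not reported here); PSME3, RNF31, AC040162.1 and PSME2P1 were added after their values were seen. Python 3.11.15, pandas 2.3.3 and matplotlib 3.10.9 did the rest.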

Additional observations from a re-analysis of the deposited data

How the results depend on the processing

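Of the 8 members in the rRNA-depleted libraries, PSME1, PSME2 and PSMB6 kept their direction and call in all 13 alternatives. PSMB9 did not pass in any and turned negative with median ratio scaling (-0.0653), voom (-0.174) and without knockout-labelled library 3 (-0.0216, up to 0.453 with other single libraries left out); PSMB5 turned positive with the GC trend removed (0.14). The difference in the log2 ratio of PSMB10 to PSMB7, 0.36, was 2.45 with a pseudocount of 0.1 and ran from -0.35 to 1.12 when single libraries were left out (-0.24 without wild-type library 2), from 3 reads at most. That of PSMB8 to PSMB5 stayed between -0.89 and -0.49 and that of PSMB9 to PSMB6 between -1.77 and -1.17. The count of genes called was 5220 and ran from 1663 (without knockout-labelled library 3, which leaves 1 sample assumed to vary like the other group) to 5185 when single libraries were left out; counting only changes of 1 or more in log2 size took the count in the authors' deposited table from 2782 to 647. Median ratio scaling changed the share of calls that were higher from 64.8% to 48.6%, and voom to 52.4%. Pairing by replicate number is not labelled and was not seen. Deviations of same-numbered libraries had correlations of 0.02, -0.02 and 0.01 across genes, and not every library correlated best with its own number. In libraries this shallow, counting noise can hide a shared source, so these values cannot show that pairing is absent. With the replicate block on 6 separate libraries 6037 genes were called, against 6880 without it, and PSMB10, with 3 reads at most, passed (limma adjusted p 0.0328, in a range of 0.0328 to 0.566 over its alternatives). The cause of these shifts was not tested. Alternatives on poly(A) counts were not run, since that table holds no single library. Depth limits PSMB10, PSMB9 and the wild-type value of PSME2 most.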
